A study of Homo sapiens with 9 samples.

Results

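The mitochondrial respiratory chain was followed in HEK293 cells, a human embryonic kidney line, through the nuclear genes of its 5 complexes. Members were the protein-coding genes whose symbol, current or older, starts with NDUFA, NDUFB, NDUFC, NDUFS, NDUFV, SDHA to SDHD, UQCR, COX4 to COX8 or ATP5. Of 107 such genes, 103 had a probe among the 19479 genes that could be named on the array, 97 by their current symbol and 6 by an older one, and 4 (NDUFC2-KCTD14, UQCRHL, ATP5MF-PTCD1 and PYURF) had none. The 103 comprised 85 subunits (37 of complex I, 4 of complex II, 9 of complex III, 18 of complex IV and 17 of complex V) and 12 assembly factors, which help to build a complex and do not stay in it. The other 6 were the supercomplex factor COX7A2L, the ATP synthase inhibitor ATP5IF1, the retrogene ATP5MGL, and DMAC2L, DMAC2 and EMC8, which carry a chain prefix only in an older symbol.

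All cells were retrovirally infected, puromycin-selected HEK293 populations with a vector that also carries GFP, and they differed in the short hairpin RNA (shRNA) delivered. Groups were shRNA 3 (KD3) and shRNA 4 (KD4), both against SmcHD1, a chromatin protein of the SMC family known for its part in gene silencing, and the control shRNA NC5 (CTL). Each group was measured on 3 one-color Agilent arrays, called biological triplicates in the methods. Nothing in the labels says that the triplicates came from separate infections, so that p-values measure the spread between these samples, which may be technical. The hairpin templates are shown because the labels tell the groups apart by them, with the loop in capitals. Each group is also its own infected and selected population, which cannot be told apart from its hairpin.
KD3: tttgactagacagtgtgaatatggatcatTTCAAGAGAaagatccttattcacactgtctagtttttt
KD4: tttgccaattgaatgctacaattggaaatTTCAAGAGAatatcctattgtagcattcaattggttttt
CTL: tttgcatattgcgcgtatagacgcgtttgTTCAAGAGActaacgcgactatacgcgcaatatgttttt
The templates had 68 bases each, with the loop at bases 30 to 38.

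The respiratory chain moves electrons from NADH, through complex I, and from succinate, through complex II, to coenzyme Q, then through complex III and cytochrome c to complex IV, where oxygen is reduced. Complexes I, III and IV pump protons across the inner mitochondrial membrane, and complex V, the ATP synthase, uses their return to make ATP. Complex II is made of nuclear-encoded subunits alone, while the other complexes also hold subunits encoded by mitochondrial DNA. No mitochondrially encoded subunit was named through a transcript accession here, so that the values are of the nuclear part. In these RNA samples, fewer cells of a type and less RNA per cell cannot be told apart.

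Values are quantile-normalized log2 signals of the brightest probe of a gene. A gene was called when its Benjamini-Hochberg adjusted p, from limma over all probes tested, was under 0.05, and every adjusted p given here is of that kind, with SE the standard error of the fitted log2 difference from CTL. Median processed signals ran from 117.7 to 181.7 over the 9 arrays, 75.1% to 79.8% of probes were well above background, and arrays of a group correlated at 0.9946 or more. Precision is limited by the 3 arrays of each group. SMCHD1 itself gave log2 signals of 11.20, 11.37 and 11.22 in CTL, 10.40, 10.16 and 10.32 in KD3 and 9.63, 9.80 and 9.77 in KD4, which left 51.0% of the CTL signal in KD3 (adjusted p = 0.000214) and 34.6% in KD4 (adjusted p = 1.81e-05). The 7 HEK293 markers were well above background on all 9 arrays. Of them, PAX2, NEFL, INA and NEFM fell in both knock-downs, PAX2 from a mean log2 signal of 10.96 (SD 0.132, 3 arrays) to 8.56 with KD3 (SD 0.045) and 8.31 with KD4 (SD 0.0337). KRT18 rose in KD4 by 0.34. Of the markers of other cell types, 5 of 5 leukocyte and 3 of 5 fibroblast markers were also well above background on all 9 arrays. So were 2 of 3 hepatocyte, 2 of 3 endothelial and 2 of 5 muscle markers. COL3A1, THY1, PECAM1 and ACTC1 were not well above background on any array. Among these other markers, VWF fell in both knock-downs, and COL1A1 and CSF1R fell in KD3. The part of these shifts in the results below was not tested.

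The transcripts of the respiratory chain moved little in either knock-down. Of the 103 members, 100 could be tested, being well above background throughout at least 1 group, and 99 of them were so on all 9 arrays. In KD3, 4 of the 100 fell and 10 rose, where 14.8% and 10.4% of all 16078 named genes tested did. In KD4, 7 fell and 15 rose, against a background of 19.8% and 14.7%, and scaling to the 75th percentile gave 4 and 16. The share that rose was thus close to that of all genes in each knock-down, and the share that fell was below it. Both knock-downs called 2 members lower (12.1% of all genes) and 8 higher (7.92% of all genes). KD3 and KD4 were compared with the same CTL arrays, so these are not independent counts. Without a threshold, 8 members had all 6 knock-down arrays below all CTL arrays (18.8% of all genes), and 18 had them above (14.5% of all genes).

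The sizes were small. The median log2 fold change over the 100 members was 0.0203 in KD3 and 0.0589 in KD4, and that of all named genes was -0.0145 and 0.00218. Of the members, 1 passed a fold of 1.8 with an adjusted p under 0.05 in KD3, where 4.42% of all genes did, and 1 in KD4, where 5.57% did. That gene was NDUFA5 each time. Ignoring direction, the median member changed by 0.116 on the log2 scale in KD3 and 0.123 in KD4, and the median named gene by 0.18 and 0.22. The 95% interval of the fold change lay wholly inside 1.5-fold for 92 of the 100 members in KD3 and for 94 in KD4. Over all named genes that held for 71.0% and 65.3%, and the median SE was 0.076 for members and 0.0946 for all genes. The part of the smaller error in this difference was not tested. In KD3 the interval reached past 1.5-fold for NDUFA5, NDUFA9, DMAC2L, NDUFAF8, SDHAF4, COX8C, COX6A2 and COX6B2, and in KD4 for NDUFA5, NDUFA9, DMAC2L, SDHAF4, COX4I2 and COX6A2.

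**Figure D1:**
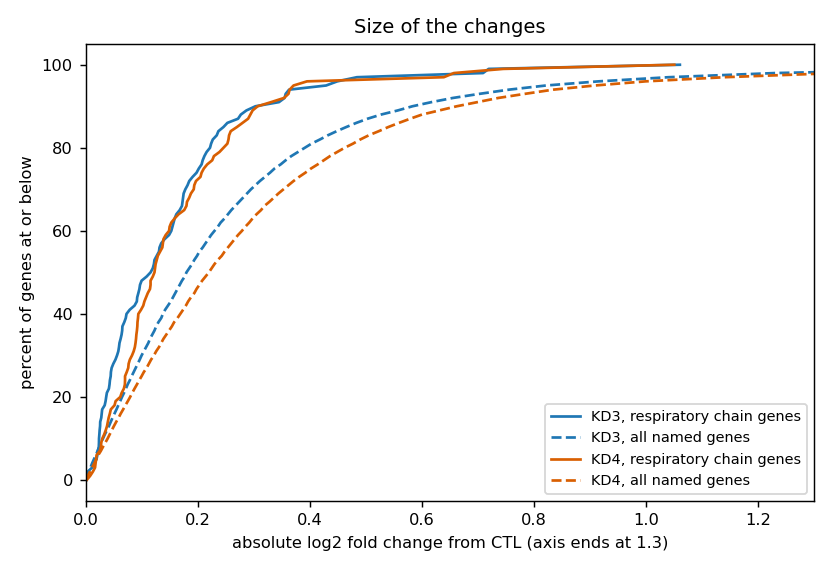
Cumulative percent of genes (vertical axis) at or below a given absolute log2 fold change from CTL (horizontal axis, cut at 1.3), for the 100 respiratory chain genes (solid) and all 16078 named genes (dashed), in KD3 and KD4. The solid lines lie to the left, with medians of 0.116 and 0.123 against 0.18 and 0.22.

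**Figure D2:**
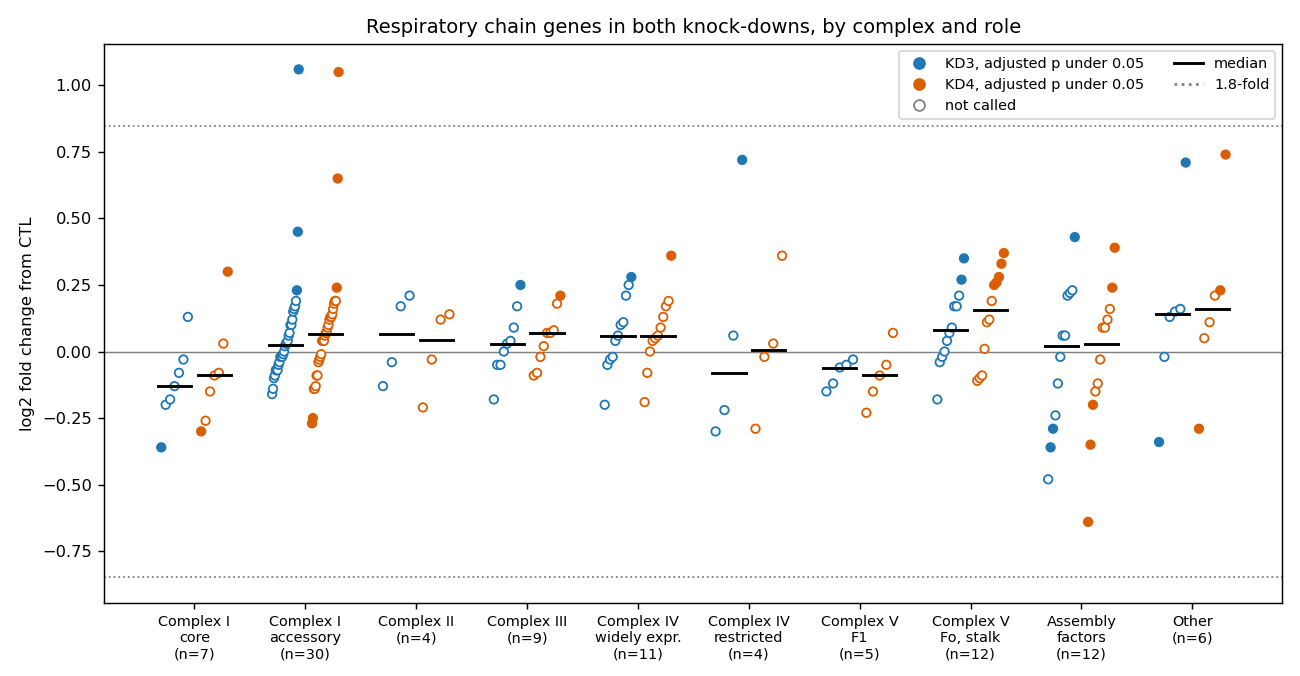
Log2 fold change from CTL (vertical axis) of each of the 100 tested members in KD3 and KD4, by complex and role (horizontal axis, n genes). Filled points have an adjusted p under 0.05, black bars are medians, dotted lines mark a 1.8-fold change, which NDUFA5, in the complex I accessory subunits, alone passes.

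Complex I, the NADH dehydrogenase, had 37 subunits tested, 7 of them core subunits, which carry the electron path, and 30 accessory subunits. Of the 37, 2.70% (1) fell and 8.11% (3) rose in KD3, against 14.8% and 10.4% of all genes, and 8.11% (3) fell and 10.8% (4) rose in KD4, against 19.8% and 14.7%. NDUFA5 and NDUFA9 rose in both.

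NDUFA5 is an accessory subunit in the peripheral arm, the part that reaches into the matrix. Its log2 signal was 11.86, 12.18 and 11.93 on the CTL arrays, 13.18, 12.96 and 13.02 on the KD3 arrays and 13.02, 12.98 and 13.13 on the KD4 arrays. Every knock-down array was higher than every CTL array, and KD3 and KD4 overlapped. In log2 units the KD3 change was 1.06 (SE 0.102, adjusted p = 0.000258) and the KD4 change was 1.05 (SE 0.102, adjusted p = 0.000219), or 2.09-fold and 2.07-fold. The gene lies on chromosome 7, was measured by 1 probe, and has 12 pseudogenes in the RefSeq gene table. Whether the probe tells them from the parent gene was not tested.

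NDUFA9, an accessory subunit with a bound nucleotide cofactor, had log2 signals of 11.50, 11.42 and 11.27 in CTL, 11.90, 11.84 and 11.80 in KD3 and 12.05, 12.09 and 12.02 in KD4. The 3 groups did not overlap, with CTL lowest and KD4 highest. Against CTL, the log2 difference was 0.45 with KD3 (SE 0.0763, adjusted p = 0.00447) and 0.65 with KD4 (SE 0.0763, adjusted p = 0.000556). KD4 exceeded KD3 by 0.21 (95% interval 0.03 to 0.38), which did not pass the adjustment (adjusted p = 0.187).

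The sequence around the start of both genes is given because they were the complex I subunits that moved in both knock-downs. Windows run from 250 bases before the start to 50 after it, from RefSeq (GRCh38.p14), and capitals mark matches on either strand to motifs of 3 factors long tied to genes of the chain: NRF1 (GCGCANGCG), the ETS factors that include GABP (CCGGAAG) and YY1 (AANATGGCG).
NDUFA5, chr7:123557769-123558068, minus strand: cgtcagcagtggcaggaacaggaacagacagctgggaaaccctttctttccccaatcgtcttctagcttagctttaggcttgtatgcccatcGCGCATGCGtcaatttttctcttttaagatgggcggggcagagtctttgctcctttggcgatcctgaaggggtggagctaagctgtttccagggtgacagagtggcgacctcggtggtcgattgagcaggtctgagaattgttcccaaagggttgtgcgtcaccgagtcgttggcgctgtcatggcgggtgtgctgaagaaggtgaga
NDUFA9, chr12:4648864-4649163, plus strand: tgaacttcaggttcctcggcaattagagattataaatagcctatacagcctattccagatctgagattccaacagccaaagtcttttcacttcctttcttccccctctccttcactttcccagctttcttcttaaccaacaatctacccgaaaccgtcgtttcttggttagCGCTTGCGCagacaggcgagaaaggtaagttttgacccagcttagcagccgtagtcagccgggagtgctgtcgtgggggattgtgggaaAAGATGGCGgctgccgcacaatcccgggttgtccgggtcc
The NDUFA5 window held an NRF1 match from -158 to -150, counting the base of the start site as 0. The NDUFA9 window held one from -79 to -71, on the other strand, and a YY1 match from 10 to 18.

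The other complex I calls came from one knock-down alone. The genes named from them, and those of the other complexes called in one knock-down, were chosen after their values were seen. NDUFV1, the core subunit that accepts electrons from NADH, fell by 0.30 in KD4 (adjusted p = 0.0158) and was at -0.18 in KD3 (adjusted p = 0.116). NDUFS7, a core iron-sulfur subunit, rose by 0.30 in KD4 (adjusted p = 0.0246) and was at 0.13 in KD3 (adjusted p = 0.31). The NDUFV1 call was lost in 1 of 17 alternative limma fits, without KD4 replicate 3, and that of NDUFS7 in 5.

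Among the accessory subunits, NDUFB9 rose in KD3 by 0.23 (adjusted p = 0.0347), and NDUFB3 rose in KD4 by 0.24 (adjusted p = 0.0163). NDUFV3 fell in KD4 by 0.27 (adjusted p = 0.0314) and NDUFA3 fell there by 0.25 (adjusted p = 0.0497). Of 17 alternative limma fits, 11 lost the call of NDUFB9, 10 that of NDUFA3, 7 that of NDUFV3 and 2 that of NDUFB3. None of these single calls differed between KD4 and KD3 after adjustment. Of the 37 subunits, 4 were lower on all 6 knock-down arrays than in CTL (18.8% of all genes), 3 of them core subunits that include NDUFS1 and NDUFV1, and 5 were higher on all 6 (14.5% of all genes). The median over the 7 core subunits was -0.125 in KD3 and -0.0924 in KD4. The median over the 30 accessory subunits was 0.0208 and 0.0675. On single arrays the median over the 37 subunits, relative to CTL, ran from -0.00756 to 0.0665 in the knock-downs and from -0.0184 to 0.0352 in CTL, and the groups overlapped.

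Complex II, succinate dehydrogenase, had all 4 subunits tested, and limma called 0 of them in either knock-down. Of all genes, 14.8% fell and 10.4% rose in KD3, and 19.8% fell and 14.7% rose in KD4. At an unadjusted p under 0.05 limma gave 1 of the 4 in each, where it gave 6286 (KD3) and 7511 (KD4) of all 16078 named genes. SDHA, the flavoprotein that oxidizes succinate, had a log2 signal of 14.99, 15.14 and 15.03 in CTL, 15.02, 14.93 and 14.83 in KD3 and 14.92, 14.85 and 14.77 in KD4. KD4 lay below CTL by 0.21 (95% interval -0.39 to -0.03), without passing the adjustment (adjusted p = 0.0814), and KD3 overlapped CTL. The dimmer SDHA probes were at -0.18, -0.29 and -0.08 in KD3 and at -0.04, -0.19 and -0.04 in KD4, without a call. Those at -0.18 and -0.29 had all KD3 arrays below all CTL arrays.

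SDHB, the iron-sulfur subunit, changed by -0.04 in KD3 (95% interval -0.19 to 0.11) and -0.03 in KD4 (-0.18 to 0.12). SDHC and SDHD anchor the complex in the membrane. SDHC was at 0.17 in KD3 (-0.06 to 0.39) and 0.14 in KD4 (-0.08 to 0.36), and SDHD at 0.21 (0.01 to 0.42) and 0.12 (-0.08 to 0.33). For SDHC the probes disagreed on the call, since its 2 dimmer probes rose in KD4 by 0.25 (adjusted p = 0.0245) and 0.27 (adjusted p = 0.0458). The 2 dimmer SDHD probes were at 0.03 and 0.02 in KD3 and at -0.10 and -0.04 in KD4, without a call.

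Of the 4 complex II assembly factors, 1 fell in KD3, and 1 fell and 1 rose in KD4. Of all genes, 14.8% fell in KD3, and 19.8% fell and 14.7% rose in KD4. SDHAF4, which binds the flavinated SDHA before assembly, had log2 signals of 10.07, 10.36 and 10.73 in CTL, 10.06, 9.87 and 9.79 in KD3 and 9.79, 9.86 and 9.58 in KD4. All 6 knock-down arrays were below the CTL arrays, although CTL itself spread over 0.66. SDHAF4 fell by 0.64 in KD4 (SE 0.163, adjusted p = 0.0198) and was at -0.48 in KD3 (adjusted p = 0.0743). Without KD4 replicate 3 the call in KD4 was lost (adjusted p = 0.0698), and the KD4 difference was -0.82 on slide 1 and -0.28 on slide 2. SDHAF1, which serves iron-sulfur cluster insertion into SDHB, fell by 0.29 in KD3 (adjusted p = 0.0245) and was at -0.12 in KD4 (adjusted p = 0.236). SDHAF2, needed for adding the flavin to SDHA, rose by 0.24 in KD4 (adjusted p = 0.0329) and was at 0.06 in KD3. The calls of SDHAF1 and SDHAF2 were lost in 6 and 8 of 17 alternative limma fits. SDHAF3 was at 0.06 and -0.15 with no call.

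Complex III, the cytochrome bc1 complex, had 9 subunits tested. At an unadjusted p under 0.05 limma gave 2 in each knock-down, where it gave 6286 (KD3) and 7511 (KD4) of all 16078 named genes. After adjustment 1 of the 9 (11.1%) rose in each knock-down, against 10.4% of all genes in KD3 and 14.7% in KD4. The gene was UQCRB, a small subunit at the coenzyme Q site, with log2 signals of 14.26, 14.13 and 14.27 in CTL, 14.50, 14.48 and 14.43 in KD3 and 14.40, 14.46 and 14.41 in KD4. All knock-down arrays lay above CTL. Relative to CTL it was at 0.25 in KD3 (adjusted p = 0.0301) and 0.21 in KD4 (adjusted p = 0.0473). These calls sat at the threshold: they were lost in 8 of 18 alternative limma fits in KD3 and in 14 of 18 in KD4, and a second, dimmer probe was at 0.26 and -0.01 without a call.

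UQCR10, a small subunit that contacts cytochrome c1, was not called by its brightest probe (0.17 in KD3, adjusted p = 0.0968, and 0.18 in KD4, adjusted p = 0.071). Both of its other probes were called higher, at 0.49 and 0.41 in KD3 and 0.30 and 0.39 in KD4. The count of complex III genes that rose thus depends on the probe chosen. Of the subunits that carry electrons or form the core, UQCRFS1, the Rieske iron-sulfur protein, was at 0.03 and 0.07, CYC1, cytochrome c1, at -0.05 and 0.02, and UQCRC2 at 0.04 and -0.02, none of them called.

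Complex IV, cytochrome c oxidase, had 18 nuclear subunits on the array, 11 widely expressed and 7 isoforms restricted to certain tissues. Among the 11, COX7B rose in both knock-downs. COX7B, a small subunit with a single membrane helix, had log2 signals of 15.41, 15.28 and 15.25 in CTL, 15.58, 15.64 and 15.56 in KD3 and 15.67, 15.66 and 15.69 in KD4. The groups did not overlap. In log2 units the KD3 change was 0.28 (SE 0.0671, adjusted p = 0.0215) and the KD4 change was 0.36 (SE 0.0671, adjusted p = 0.00483).

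COX5A and COX5B, which form the matrix side of the complex, leaned in opposite directions without a call. COX5A was lower on all 6 knock-down arrays, at -0.20 in KD3 (95% interval -0.36 to -0.04, adjusted p = 0.088) and -0.19 in KD4 (-0.35 to -0.03, adjusted p = 0.0761). COX5B was higher on all 6, at 0.21 (0.05 to 0.36, adjusted p = 0.0644) and 0.17 (0.02 to 0.33, adjusted p = 0.0875). COX4I1, which holds a regulatory site for ATP, was at -0.02 and 0.05, and COX7C at 0.06 and 0.00.

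Of the 7 tissue-restricted isoforms, 4 could be tested. Levels of different probes cannot be compared, so each isoform is set against its own CTL value. COX4I2, the lung-type partner of COX4I1, was at 0.06 in KD3 and 0.36 in KD4 (95% interval 0.03 to 0.70, adjusted p = 0.0959). COX6A2, the heart and muscle partner of COX6A1, was at -0.30 (-0.70 to 0.11) and -0.29 (-0.69 to 0.12), while COX6A1 was at -0.05 and -0.08. COX6B2, the testis partner of COX6B1, was at -0.22 (-0.72 to 0.28) and 0.03 (-0.48 to 0.53), and COX6B1 at 0.10 and 0.19.

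COX8C, the testis-type partner of COX8A, was well above background on all KD3 arrays, on 1 KD4 array and on 0 CTL arrays. Its log2 signals were 3.10, 3.48 and 3.55 in CTL, 4.07, 3.83 and 4.38 in KD3 and 3.11, 3.53 and 3.43 in KD4. It was at least 1.64-fold higher in KD3 than in CTL (adjusted p = 0.0232), the CTL mean being taken of the higher of its own signal and the lowest signal well above background. COX8C entered the test only through KD3, where it was high, so that its call, 1 of the 10 members counted as higher in KD3, describes how it was admitted and is no result. The call was lost in 5 of 16 alternative limma fits, among them scaling to the 75th percentile and normexp. COX8A was at 0.04 and 0.13. COX7A1, the muscle partner of COX7A2, was well above background on 2 arrays of each group, COX7B2 on none, and COXFA4L2 (formerly NDUFA4L2) on 1 CTL array, and these 3 were not tested. COXFA4, formerly NDUFA4 and now counted with complex IV, was at 0.11 and 0.06.

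COX7A2L, which joins complexes III and IV into supercomplexes, fell in both knock-downs. Its log2 signal was 14.02, 14.03 and 14.09 in CTL, 13.74, 13.71 and 13.66 in KD3 and 13.75, 13.76 and 13.76 in KD4. Each knock-down array was below each CTL array. Against CTL, the log2 difference was -0.34 with KD3 (SE 0.0601, adjusted p = 0.00505) and -0.29 with KD4 (SE 0.0601, adjusted p = 0.00766), which left 0.79 and 0.82 of the CTL signal. A second probe was also lower, at -0.29 (adjusted p = 0.0421) and -0.18 (adjusted p = 0.139). COX7A2, its subunit paralog, was at -0.03 and 0.04.

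**Figure D3:**
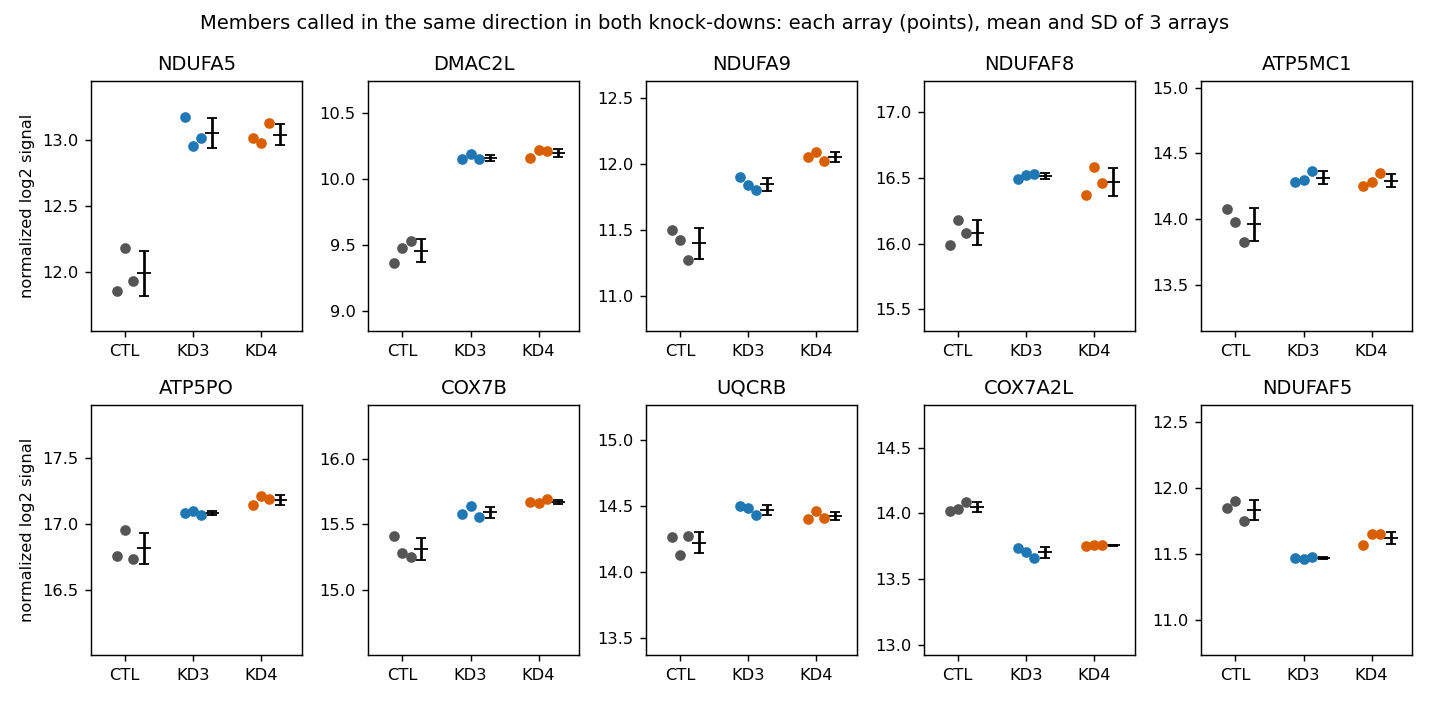
Normalized log2 signal (vertical axes, all spanning the same range) on each array for the 8 members higher and the 2 members lower in both knock-downs, with the mean and SD of 3 arrays beside the points. For each of the 10 genes the knock-down arrays lie on one side of all CTL arrays, NDUFA5 farthest apart.

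Complex V, the ATP synthase, had 17 subunits tested. The catalytic F1 part had 5 (ATP5F1A to ATP5F1E), and the membrane Fo part and the peripheral stalk, here Fo and stalk, had 12. Limma called 0 of the 5 F1 subunits, with 0 at an unadjusted p under 0.05 in KD3 and 1 in KD4. Among all genes, 14.8% fell and 10.4% rose in KD3, and 19.8% fell and 14.7% rose in KD4. At an unadjusted p under 0.05 limma gave 6286 (KD3) and 7511 (KD4) of all 16078 named genes. Of the 12 Fo and stalk subunits, 2 rose in KD3 (10.4% of all genes) and 5 in KD4 (14.7% of all genes). The median over all 17 subunits was -0.00197 in KD3 and 0.0694 in KD4. The median over F1 was -0.0634 in KD3 and -0.0894 in KD4, and over Fo and stalk 0.0818 and 0.151. This split was noticed in the data, and the difference between the 2 sets was not tested.

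ATP5PO, the OSCP subunit at the top of the peripheral stalk, had log2 signals of 16.76, 16.95 and 16.73 in CTL, 17.08, 17.10 and 17.07 in KD3 and 17.14, 17.21 and 17.19 in KD4. CTL, KD3 and KD4 did not overlap. It rose by 0.27 in KD3 (SE 0.074, adjusted p = 0.0337) and by 0.37 in KD4 (SE 0.074, adjusted p = 0.00686). The KD3 call was lost in 11 of 17 alternative limma fits, and the KD4 call in 0.

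ATP5MC1, ATP5MC2 and ATP5MC3 encode the same mature c subunit of the rotor ring with different import sequences. ATP5MC1 had log2 signals of 14.08, 13.98 and 13.83 in CTL, 14.28, 14.30 and 14.37 in KD3 and 14.25, 14.28 and 14.35 in KD4. Both knock-downs lay above CTL, by 0.35 in KD3 (SE 0.0792, adjusted p = 0.015) and 0.33 in KD4 (SE 0.0792, adjusted p = 0.0156). The other 2 were not called, ATP5MC2 at -0.18 (95% interval -0.36 to 0.01) and -0.09 (-0.28 to 0.10), and ATP5MC3 at -0.04 (-0.19 to 0.10) and -0.10 (-0.25 to 0.04). Leaving out KD3 replicate 3 ended the ATP5MC1 call in KD3 (adjusted p = 0.0535), and leaving out KD4 replicate 3 that in KD4 (adjusted p = 0.0578).

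In KD4 alone, ATP5MG rose by 0.28 (adjusted p = 0.00915), ATP5PF by 0.26 (adjusted p = 0.0281) and ATP5PB by 0.25 (adjusted p = 0.0438). ATP5PF and ATP5PB belong to the peripheral stalk, and ATP5MG to the membrane part. In KD3 the values were 0.17, 0.07 and 0.21 without a call. The KD4 calls of ATP5PF and ATP5PB were lost in 6 and 10 of 17 alternative limma fits. The KD4 count of 5 fell to 2 without KD4 replicate 3 and to 3 without KD4 replicate 1, KD4 replicate 2, CTL replicate 2 or CTL replicate 3. ATP5MGL, a retrogene similar to ATP5MG, rose by 0.23 in KD4 (adjusted p = 0.0356), and near-identical copies may share signal.

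In F1, ATP5F1A, the alpha subunit, was at -0.12 in KD3 (95% interval -0.29 to 0.05) and -0.23 in KD4 (-0.40 to -0.05, adjusted p = 0.0549). ATP5F1B, the catalytic beta subunit, was at -0.15 in each knock-down. Over all 17 subunits the median, relative to CTL, lay between -0.016 and 0.0896 in the knock-downs. In CTL it lay between -0.0442 and 0.0391, and the groups overlapped. Over the 12 Fo and stalk subunits it lay between 0.0774 and 0.18 on the 6 knock-down arrays. On the CTL arrays it lay between -0.049 and 0.0368, with no overlap. Over the 5 F1 subunits it lay between -0.144 and -0.0255 in the knock-downs and between -0.0276 and 0.0654 in CTL, with overlap. The split into F1 and Fo was noticed in these same values, so that their separation by array lends it no further support. ATP5IF1, which blocks the enzyme when it would run backwards, was at 0.15 and 0.21 without a call.

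**Figure D4:**
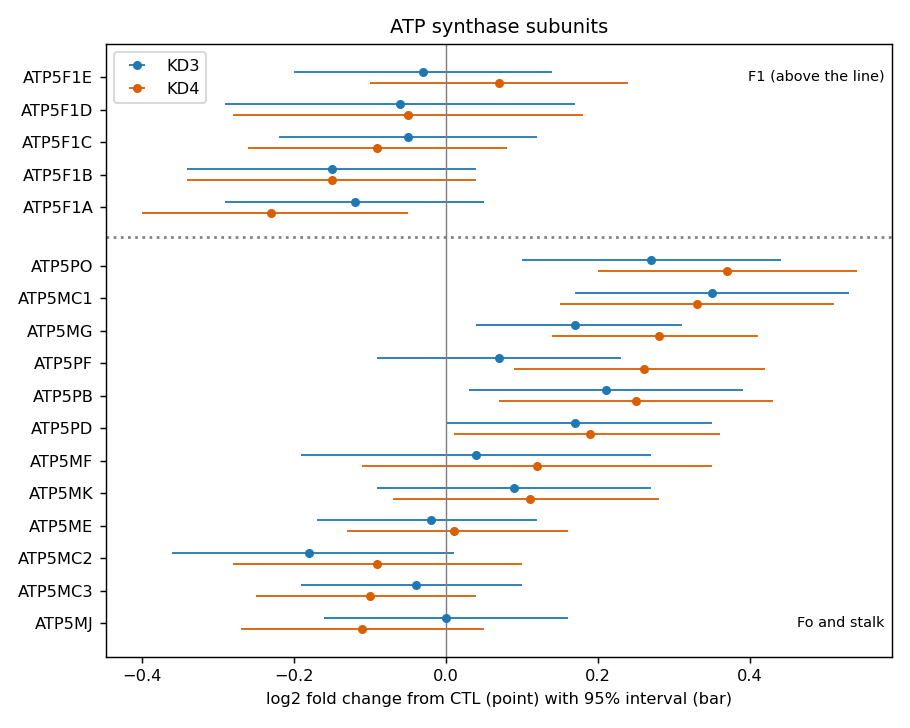
Log2 fold change from CTL (horizontal axis; points, with 95% intervals as bars) of the 17 ATP synthase subunits in KD3 and KD4, F1 above the dotted line and Fo and stalk subunits below it. ATP5PO and ATP5MC1 have intervals above 0 in both knock-downs, and of the F1 subunits ATP5F1A in KD4 alone has an interval that leaves out 0.

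**Figure D5:**
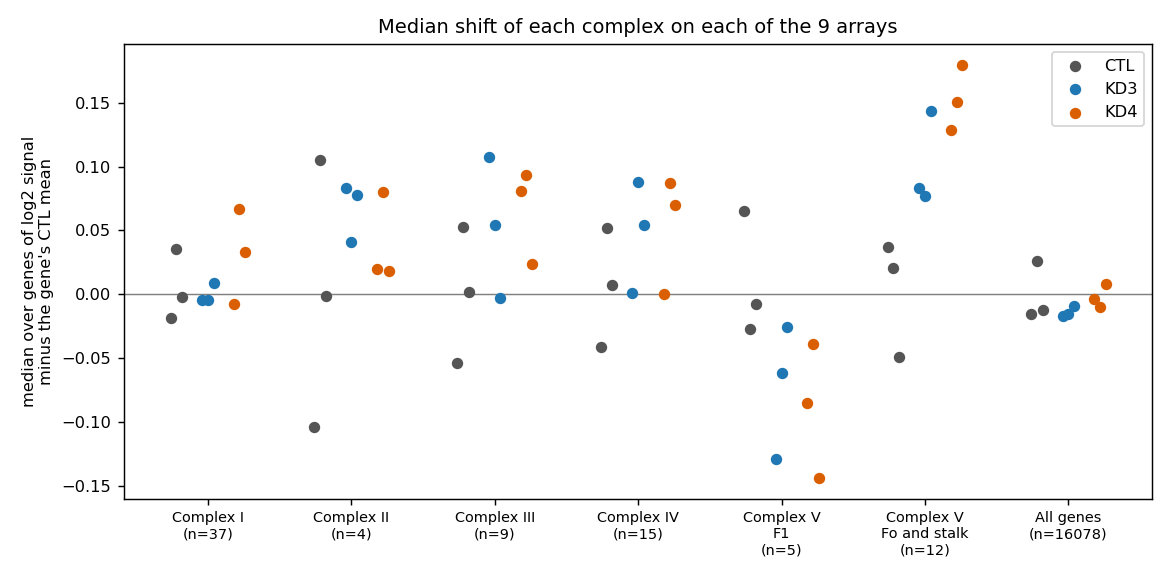
Median over genes of the log2 signal minus the gene's CTL mean (vertical axis), for each of the 9 arrays (points) and each complex (horizontal axis, n genes). The Fo and stalk subunits of complex V, a set noticed in these same values, have all 6 knock-down arrays (0.0774 to 0.18) above the 3 CTL arrays. Complexes I to IV and the F1 subunits overlap between the groups, and so does complex V taken whole, which is not drawn.

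Among the 8 assembly factors of complex I, 1 fell and 1 rose in KD3, and 2 fell and 1 rose in KD4. Of all genes, 14.8% fell and 10.4% rose in KD3, and 19.8% fell and 14.7% rose in KD4. NDUFAF8, which works with NDUFAF5, rose in both knock-downs. Its log2 signal was 15.99, 16.18 and 16.08 in CTL, 16.49, 16.52 and 16.53 in KD3 and 16.37, 16.58 and 16.46 in KD4. All knock-down arrays exceeded all CTL arrays. Relative to CTL it was at 0.43 in KD3 (SE 0.079, adjusted p = 0.00644) and 0.39 in KD4 (SE 0.079, adjusted p = 0.00768), and a second probe gave 0.45 and 0.39 and was called in both.

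NDUFAF5, which modifies NDUFS7 during assembly, fell in both. Its log2 signal was 11.85, 11.90 and 11.75 in CTL, 11.47, 11.46 and 11.48 in KD3 and 11.57, 11.65 and 11.65 in KD4. The groups did not overlap, with KD3 lowest. In log2 units the KD3 change was -0.36 (SE 0.066, adjusted p = 0.00654) and the KD4 change was -0.20 (SE 0.066, adjusted p = 0.0487), and the KD4 call was lost in 14 of 17 alternative limma fits. NDUFAF3, which acts with NDUFAF4 early in assembly, fell by 0.35 in KD4 (adjusted p = 0.0205) and was at -0.24 in KD3 (adjusted p = 0.108). NDUFAF6 was not called by its brightest probe, at 0.22 in KD3 (adjusted p = 0.0506) and 0.09 in KD4. A dimmer NDUFAF6 probe rose in KD3 by 0.46 (adjusted p = 0.0174) and was at -0.11 in KD4. The count of these factors that rose in KD3 thus depends on the probe chosen.

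The windows of NDUFAF8 (the first of 2 listed) and of ATP5PO are shown in the same way. They are 2 of the other members called in both knock-downs, and both rose.
NDUFAF8, chr17:81239061-81239360, plus strand: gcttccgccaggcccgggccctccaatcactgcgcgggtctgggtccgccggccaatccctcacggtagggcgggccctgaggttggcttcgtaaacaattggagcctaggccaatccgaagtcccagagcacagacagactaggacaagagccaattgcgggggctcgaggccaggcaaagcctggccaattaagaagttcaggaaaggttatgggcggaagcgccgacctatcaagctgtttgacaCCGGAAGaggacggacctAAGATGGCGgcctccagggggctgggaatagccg
ATP5PO, chr21:33915755-33916054, minus strand: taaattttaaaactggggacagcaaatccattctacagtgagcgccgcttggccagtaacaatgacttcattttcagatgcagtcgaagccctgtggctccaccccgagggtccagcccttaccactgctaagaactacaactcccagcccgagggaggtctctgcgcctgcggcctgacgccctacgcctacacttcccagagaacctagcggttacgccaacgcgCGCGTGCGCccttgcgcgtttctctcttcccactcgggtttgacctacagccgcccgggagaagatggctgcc
NDUFAF8 held an ETS match from -2 to 4 and a YY1 match from 16 to 24, while ATP5PO held an NRF1 match from -23 to -15. The window of NDUFAF5, which fell in both and is not shown, held NRF1 matches from -4 to 4 and, on the other strand, from -3 to 5. A window was found for 85 of the 103 members. Of these, 31.8% held the NRF1 motif in any of their windows, 30.6% the ETS motif and 22.4% the YY1 motif. Over 15843 protein-coding genes with a window the shares were 12.5%, 16.5% and 5.59%. Of all 35116 windows in the table, 7.52%, 10.3% and 3.19% held them. Among 6 members higher in both knock-downs that had a window, 3 held the NRF1 motif, 1 the ETS motif and 2 the YY1 motif. A match is a description of the letters, and says nothing of binding in these cells.

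DMAC2L, formerly ATP5S, codes for a coupling factor with an uncertain place in the ATP synthase. Its log2 signal was 9.36, 9.48 and 9.53 in CTL, 10.15, 10.19 and 10.15 in KD3 and 10.16, 10.22 and 10.21 in KD4. The knock-downs overlapped each other and lay above CTL. Against CTL, the log2 difference was 0.71 with KD3 (SE 0.0673, adjusted p = 0.000245) and 0.74 with KD4 (SE 0.0673, adjusted p = 0.000155). Its other probe was at 0.16 (adjusted p = 0.195) and 0.22 (adjusted p = 0.0642), so the probes of this gene disagree in size.

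The knock-downs differed little from each other in these genes. KD4 against KD3, limma called 0 of the 100 members by their brightest probe, where 3.25% of all named genes were called. A dimmer NDUFAF6 probe was called lower in KD4, at -0.57 (adjusted p = 0.0311), and the brightest was at -0.13 (adjusted p = 0.334). The count of 0 thus depends on the probe chosen. At an unadjusted p under 0.05 limma gave 6 of the 100, where it gave 3488 of all 16078 named genes. The methods' t-test with adjustment gave 0 members. Its share over all named genes is not given here, so this 0 says nothing particular to the members. Among the brightest probes, the smallest adjusted p was that of COX8C (0.0717). No difference is given for COX8C, because it entered the test only through KD3 and was well above background on 1 KD4 array. It was followed by NDUFA9 and by SDHAF2 at 0.18 (0.02 to 0.35, adjusted p = 0.203). ATP5PF was at 0.19 (0.02 to 0.35, adjusted p = 0.204) and NDUFAF5 at 0.15 (0.00 to 0.30, adjusted p = 0.254). The interval lay inside 1.5-fold for 97 of the 100 members and for 81.6% of all named genes.

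Of the 26 members called in at least one knock-down, some calls held in every alternative limma fit and many did not. The methods' t-test with adjustment gave fewer calls, 1 lower and 0 higher in KD3, and 0 lower and 4 higher in KD4. Its shares over all genes are not given here. In KD3, 6 of 14 calls were made in every alternative limma fit, those of NDUFA5, NDUFA9, DMAC2L, NDUFAF8, COX7A2L and NDUFAF5. In KD4, 8 of 22 were, those of the first 5 genes and of COX7B, ATP5PO and ATP5MG. Both slides held arrays of all groups, and the 10 members called in both knock-downs had the same sign on each slide taken alone. That sign was fixed in advance, since all knock-down arrays of these genes lay on one side of all CTL arrays. It lends the calls no further support. On slide 2 the KD4 difference rests on 1 array against 1 CTL array, and on slide 1 KD3 had 1 array. NDUFA5 was higher by 0.90 on slide 1 and 1.24 on slide 2 in KD3, and by 1.00 and 1.16 in KD4. ATP5MC1 was at 0.40 and 0.25 in KD3 and 0.41 and 0.17 in KD4.

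Other genes of the pathway were described from fixed lists. Over all named genes, 14.8% fell and 10.4% rose in KD3, and 19.8% fell and 14.7% rose in KD4, and each count below is to be read beside these shares. Of 31 assembly factors of complexes III, IV and V, 3 fell and 5 rose in KD3, and 4 fell and 7 rose in KD4. LYRM7, a chaperone of the Rieske protein of complex III, rose by 1.21 in KD3 (adjusted p = 0.000123) and 1.24 in KD4 (adjusted p = 8.17e-05). COX20, a chaperone of the COX2 subunit, rose by 0.81 and 0.94, and COA3, which serves COX1 synthesis, by 0.42 and 0.46. Of 10 further complex I assembly factors, 1 fell and 1 rose in KD3, and 1 fell and 2 rose in KD4. They were COA1, at -0.29 and -0.41, TMEM126A, at 0.26 and 0.27, and TMEM126B, which rose in KD4 by 0.35 and was at 0.27 in KD3 (adjusted p = 0.0957). Of these calls, those in KD3 were lost in 7 of 17 alternative limma fits for COA1 and in 10 for TMEM126A, and those in KD4 in 6 for TMEM126A and in 8 for TMEM126B. COA1 counts in both lists.

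Of 11 genes of coenzyme Q synthesis, 2 fell in KD3 and 4 in KD4. COQ2, which attaches the side chain to the ring, fell by 0.26 in KD3 (adjusted p = 0.0496) and by 0.47 in KD4 (adjusted p = 0.00324), and COQ9 by 0.24 and 0.37. The KD3 calls of COQ2 and COQ9 were lost in 11 and 15 of 17 alternative limma fits. COQ8A fell in KD4 by 0.25, a call lost in 13 of 17, and was at -0.16 in KD3. Of 4 further genes of the chain, ETFA, the alpha subunit of the electron transfer flavoprotein, fell by 0.31 and 0.33, and ETFDH, which passes its electrons to coenzyme Q, rose by 0.48 in each knock-down.

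Of 14 genes of the tricarboxylic acid cycle, which feeds the chain, 2 fell and 1 rose in KD3, and 3 fell and 1 rose in KD4. IDH2, the mitochondrial NADP-dependent isocitrate dehydrogenase, fell by 0.67 in KD3 (adjusted p = 0.0081) and 0.60 in KD4 (adjusted p = 0.00943). FH, fumarase, fell by 0.25 and 0.31, the KD3 call being lost in 11 of 17 alternative limma fits, and SUCLG1 rose in KD4 by 0.28 and was at 0.19 in KD3 (adjusted p = 0.0709). Of 7 carriers and pores, 2 fell in KD4, SLC25A6, an ADP/ATP carrier, by 0.22 and VDAC1, an outer membrane channel, by 0.22, and in KD3 they were at -0.17 and -0.20 without a call. The KD4 calls were lost in 7 and 8 of 17 alternative limma fits.

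Of 76 mitochondrial ribosomal proteins, whose ribosome makes the mitochondrially encoded subunits, 2 fell and 10 rose in KD3, where 14.8% and 10.4% of all genes did, and 3 fell and 20 rose in KD4, where 19.8% and 14.7% did. The median log2 fold change was 0.0805 and 0.118. MRPL27 rose by 0.35 and 0.48, MRPL58 by 0.41 in each, and MRPL40 by 0.32 and 0.35. Of 15 regulators, 2 fell and 2 rose in KD3, and 3 fell and 2 rose in KD4. TFB1M, the methyltransferase of the mitochondrial small ribosomal RNA, fell by 0.51 and 0.67 (adjusted p = 0.00075 and 0.000146). PPARGC1A, a coactivator of mitochondrial biogenesis, fell by 0.66 in KD3 (adjusted p = 0.00819) and 0.93 in KD4 (adjusted p = 0.00118). GABPB1, a subunit of the ETS factor GABP, rose by 0.27 in KD3 and 0.48 in KD4, and the KD3 call was lost in 12 of 17 alternative limma fits.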

How the data were processed

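Gene expression was measured on 9 one-color Agilent arrays, 3 each of KD3, KD4 and CTL. The authors deposited scanner files with the spot intensity from Agilent Feature Extraction 10.10, in which the green processed signal was already background-subtracted, and a table of log2 values that they had quantile normalized (the methods write quintile). That table was an alternative here, and differed from the values below by a median log2 of -0.0755.

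Control spots, and spots marked non-uniform or population outlier (between 260 and 634 of the 58717 on an array), were dropped. No spot was saturated. The log2 signals were then put through quantile normalization in limma 3.58.1 (R 4.3.3), and the mean was taken over spots of one probe. Of 42405 probes, 42384 had a value on all arrays, and the 32276 that were well above background throughout at least 1 group entered the test. Through their RefSeq accession 25422 probes were named with a GRCh38.p14 gene table, and the brightest probe stood for a gene. One limma model with 3 group means was fitted over the 9 arrays (lmFit, then eBayes), and p-values were adjusted by Benjamini-Hochberg over all tested probes. The fit was tested on simulated data. The members and gene lists were chosen with earlier results of these data known. Members named by rule were those past 1.8-fold or called in the same direction in both knock-downs, complex II, the tissue-restricted isoforms, the 5 with the smallest adjusted p between the knock-downs and up to 3 genes per other list.

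Other settings tried were 75th percentile scaling, normexp (offset 50), the authors' own values, a looser and a tighter filter against dim probes, the t-test named in the methods, a fit of each knock-down with CTL alone, a block for the replicate number or for the slide, the mean over a gene's probes, a fold of 1.8 as threshold, subunits only, and the omission of each array. Arrays with the same replicate number did not deviate together (correlations of -0.0775 to 0.143 over 9 pairs). The values of 1 member are not reported here by name.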

Additional observations from a re-analysis of the deposited data

How the results depend on the processing

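The medians, the SMCHD1 fall and the counts of 0 between KD4 and KD3 kept their direction and their side of the threshold under every alternative run, and no named gene past the threshold reversed. Counts of members moved more. Scaling to the 75th percentile gave 4 lower and 16 higher in KD4 (7 and 15 as reported), and 1 lower in both. Normexp gave 4 lower in both, the authors' values 16 higher in KD3. Without a filter on dim probes, or with the slide as a block, 1 was lower in both. With the replicate number as a block, 6 members were higher in KD3, 5 higher in both, 1 lower in both and 3 Fo and stalk subunits higher in KD4 (5 as reported, a count chosen after its values were seen), and the numbers do not pair the arrays. Fitted each alone, the knock-downs had 2 lower and 6 higher in KD3, 4 lower in KD4, and 5 higher and 1 lower in both. The methods' t-test with adjustment gave 1 lower and 0 higher in KD3, 0 lower and 4 higher in KD4, 0 and 0 in both, and 1 Fo and stalk subunit higher. A fold of 1.8, with limma or with the unadjusted t-test, left 0 lower and 1 higher in KD3, in KD4 and in both. Subunits only gave 1 lower in KD3, 3 in KD4 and 0 in both. Leaving out 1 array gave 2 to 4 lower and 5 to 9 higher in KD3 (fewest without KD3 replicate 3), 2 to 7 and 8 to 14 in KD4 (fewest without KD4 replicate 3, and 8 higher also without KD4 replicate 1), 1 to 3 and 5 to 6 in both, and 2 to 5 Fo and stalk subunits higher in KD4. The higher count in KD3 was 6 without KD3 replicate 1 or 2, and that in KD4 was 9 without KD4 replicate 2 or CTL replicate 3. The cause of these moves was not tested. With 3 arrays a group, some isoforms, such as COX6B2, have wide intervals.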
